A study of Ovis aries with 62 samples.

Results

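NFIC (ENSOARG00000012667), NFIX (ENSOARG00000009535), HIVEP1 (ENSOARG00000014356), HIVEP2 (ENSOARG00000001505), RFX7 (ENSOARG00000020885) and ZFHX3 (ENSOARG00000003669) are 6 of the 16011 genes measured in the ventral rumen wall of 62 Merino ewes. All 6 encode proteins that bind DNA and regulate transcription. They were chosen from values measured in these same libraries, that is their levels by test block, their relation with the traits of the sheep and their relation with muscle content. Values on blocks, traits and muscle content are therefore a description with no test of a single gene, and only the relation with sequencing depth and the change of the muscle relation between blocks were tested. All 6 genes had a value in every sheep. RFX7 and HIVEP1 fell under 3 CPM (reads of the gene scaled to the size of the library) in at least 1 library, and the other 4 genes did not.

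The ewes were tested for CH4 emission in 4 blocks (test periods), which held 16, 16, 14 and 16 sheep from the first to the last. All sheep were fed the same lucerne and oat chaff, and none was given a treatment. Each library was made from 1 full-thickness sample of the rumen wall, which holds the epithelium together with the connective tissue and muscle layers. The ewes came from few sires, so some are related, and sire is not in the labels. Level is given as log2 CPM as the authors deposited it, which is not scaled to gene length, so levels are compared between sheep and not between genes.

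Nuclear factor I proteins (NFI, here NFIC and NFIX) bind a palindromic DNA motif and act as activators or repressors in many tissues. In the mouse, NFIX is known for a role in the switch of muscle progenitors to the fetal program, and NFIC for tooth root formation. HIVEP1 and HIVEP2, also called Schnurri proteins, are very large zinc finger proteins that bind enhancer motifs like those of NF-kB. ZFHX3 (also called ATBF1) is a very large protein with both zinc fingers and homeodomains, and RFX7 is a winged-helix factor of the X-box binding family and carries no zinc finger name. The smooth muscle coats of the rumen mix and move the digesta, while its cornified epithelium takes up fermentation products, and a full-thickness sample weighs both. In such a sample, fewer cells of a type and less RNA per cell cannot be told apart.

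Libraries held 4208032 to 12130080 assigned reads, with a median of 6812020 in block 1 and of 8215480, 8694507 and 8588580 in blocks 2, 3 and 4. The tissue was as labeled, since the 12 smooth muscle markers averaged 10.08 log2 CPM over all sheep and the 7 markers of cornifying epithelium averaged 9.76. The 12 smooth muscle markers averaged 10.50 in block 1, against 9.93 in blocks 2–4, and all 12 were higher in block 1. The 7 markers of cornifying epithelium averaged 8.83 in block 1, against 10.08 in blocks 2–4, and all 7 were lower in block 1. Of 9 fibroblast and matrix markers 7 passed as higher in block 1 (mean 8.52, against 8.02 in blocks 2–4) and 2 did not pass. Of 6 general epithelial markers 5 passed as lower (7.69, against 8.14) and 1 did not pass. Of 7 markers of dividing cells 4 passed as higher (5.15, against 4.71) and 3 did not pass. These 3 counts use the limma fit over all genes given below and its adjusted p threshold. In that fit 17.2% of all genes passed as higher in block 1 and 19.3% as lower. In 7 sheep of block 1, the mean of the epithelial differentiation list lay under that of every sheep of blocks 2–4, and counts are repeated without these 7 sheep. The 4 mitochondrial transcripts took a mean of 0.227% of the assigned reads in block 1, against 0.180% in blocks 2–4.

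Each of the 6 genes was higher in block 1 than in blocks 2–4 by about 1 log2 unit or more. The differences were 1.33 ± 0.19 for RFX7, 1.26 ± 0.14 for NFIX, 1.25 ± 0.19 for HIVEP1, 1.21 ± 0.13 for NFIC, 1.16 ± 0.15 for ZFHX3 and 1.04 ± 0.12 for HIVEP2 (log2, SE, n = 16 and 46 sheep). The limma fit over all genes (adjusted p threshold 0.05) placed all 6 among the genes higher in block 1, a direction in which 17.2% of the 16011 genes passed. As the block values were used to choose the genes, nothing is read from that count.

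NFIC ranged over 3.26 to 5.44 log2 CPM in block 1 with a median of 4.65, against 2.57 to 4.16 with a median of 3.28 in blocks 2–4. In 11 of the 16 sheep of block 1 the level was above the highest sheep of blocks 2–4. Block 1 was also the most variable block for NFIC, with a mean of 4.55 ± 0.61, against 3.59 ± 0.37, 3.29 ± 0.47 and 3.14 ± 0.27 in blocks 2, 3 and 4 (SD).

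NFIX ranged over 3.63 to 6.07 log2 CPM in block 1 with a median of 5.26, against 2.88 to 4.80 with a median of 3.88 in blocks 2–4. In block 1, 12 of 16 sheep were above every sheep of blocks 2–4, the highest such number of the 6 genes. Its block means were 5.18 ± 0.64, 4.14 ± 0.44, 3.92 ± 0.46 and 3.70 ± 0.37 in blocks 1 to 4 (SD).

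HIVEP1 was the least regular gene of the 6. Its level ran from 2.37 to 5.62 log2 CPM in block 1 with a median of 4.84, against 1.50 to 4.34 with a median of 3.41 in blocks 2–4. The lowest sheep of block 1, oz166, thus lay below 45 of the 46 sheep of blocks 2–4, while 11 of the 16 sheep lay above all 46. Block means were 4.54 ± 0.82, 3.52 ± 0.60, 3.12 ± 0.73 and 3.20 ± 0.41 in blocks 1 to 4 (SD), so blocks 3 and 4 stood in the other order than for the remaining 5 genes.

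HIVEP2 had the smallest difference between blocks and also the smallest spread. It ran from 5.32 to 6.81 log2 CPM in block 1 with a median of 6.39, against 4.37 to 5.83 with a median of 5.16 in blocks 2–4. All 16 sheep of block 1 exceeded the median of blocks 2–4, which held for no other gene of the 6, and 11 exceeded every sheep of blocks 2–4. Block means were 6.21 ± 0.52, 5.36 ± 0.35, 5.21 ± 0.27 and 4.94 ± 0.35 in blocks 1 to 4 (SD).

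RFX7 had the lowest read numbers of the 6, with 13 to 358 reads per library. It ran from 2.59 to 5.74 log2 CPM in block 1 with a median of 4.41, against 1.30 to 4.06 with a median of 3.01 in blocks 2–4. In block 1, 14 of 16 sheep were above the median of blocks 2–4 and 11 were above all their sheep. Block means were 4.29 ± 0.84, 3.27 ± 0.40, 2.95 ± 0.67 and 2.66 ± 0.55 in blocks 1 to 4 (SD).

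ZFHX3 ran from 4.59 to 7.22 log2 CPM in block 1 with a median of 6.29, against 3.96 to 5.93 with a median of 4.96 in blocks 2–4. In block 1, 10 of 16 sheep were above every sheep of blocks 2–4, the lowest such number of the 6 genes. The SD of ZFHX3 in block 1 was 1.69 times that in blocks 2–4, the widest such ratio of the 6, against 1.37 for HIVEP1. Its block means were 6.09 ± 0.77, 5.18 ± 0.46, 4.90 ± 0.41 and 4.71 ± 0.38 in blocks 1 to 4 (SD).

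**Figure D1:**
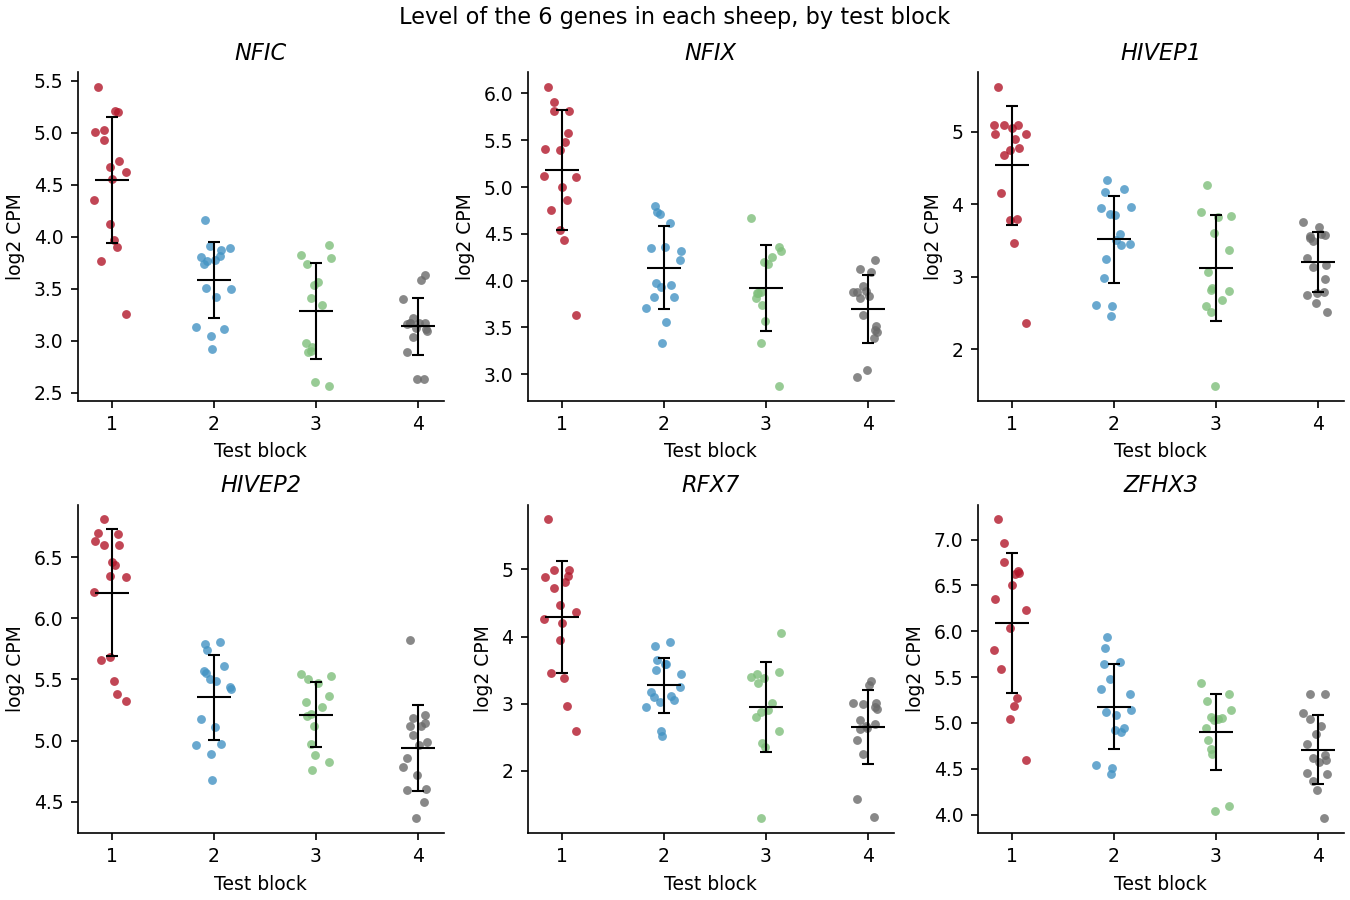
Level of each gene (log2 CPM, y axis) in each sheep, by test block (x axis). Each point is 1 sheep, horizontal marks are block means and bars are SD. For each gene 10 to 12 of the 16 sheep of block 1 lie above every sheep of blocks 2–4, and the lower sheep of block 1 lie among them.

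No sheep of blocks 2–4 exceeded the median of block 1 for any of the 6 genes. This and the counts of sheep above were not taken over all genes. As block values were used to choose the 6 genes, nothing is read from these counts. Among blocks 2–4 the order was less clear. Block 2 lay above block 4 by 0.32 (HIVEP1) to 0.62 (RFX7) log2, beside an SD of 0.27 (NFIC in block 4) to 0.60 (HIVEP1 in block 2) within them. Block 3 minus block 4 was −0.08 (HIVEP1) to 0.29 (RFX7) log2, less than the SD of either block for every gene except HIVEP2 (0.27, with an SD of 0.27 in block 3). Block means took 44.4% (HIVEP1) to 62.4% (HIVEP2) of the variance of the 6 genes, while the median over all genes was 9.31%. The choice on block values bears on this contrast too, so nothing is read from it.

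The same sheep were high for all 6 genes. Sheep oz171 was the highest for 5 of them and the second for HIVEP2, and oz85 and oz89 were among the 5 highest for each gene. These 3 sheep had 5835938, 5749709 and 4754572 assigned reads, and their epithelial differentiation means were 5.70, 7.10 and 6.22 log2 CPM, while the mean of blocks 2–4 was 7.83. They belong to the 7 sheep named above. Sheep oz192 and oz196, which do not, were among the 10 highest for all 6 genes as well. At the other end, oz166 was the lowest sheep of block 1 for each gene, and oz170 of block 2 was among the 10 lowest sheep of all for each gene.

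The difference between blocks was smaller once muscle content or the 7 sheep were taken into account, but it kept its sign. With the muscle list mean as a covariate the differences were 0.70 (ZFHX3) to 0.91 (RFX7) log2, and all 6 genes passed in a fit in which 7.36% of genes were higher in block 1. Without the 7 sheep they were 0.67 (ZFHX3) to 0.88 (NFIX) log2, and all 6 genes passed, beside 1.94% of all genes in that direction. As the genes were chosen on block values, nothing is read from either count. With log2 assigned reads as a covariate they were 0.97 (HIVEP2) to 1.22 (NFIX) log2. How far muscle content, cornification or depth takes part in the difference was not tested, as all 3 differ between block 1 and the other blocks.

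**Figure D2:**
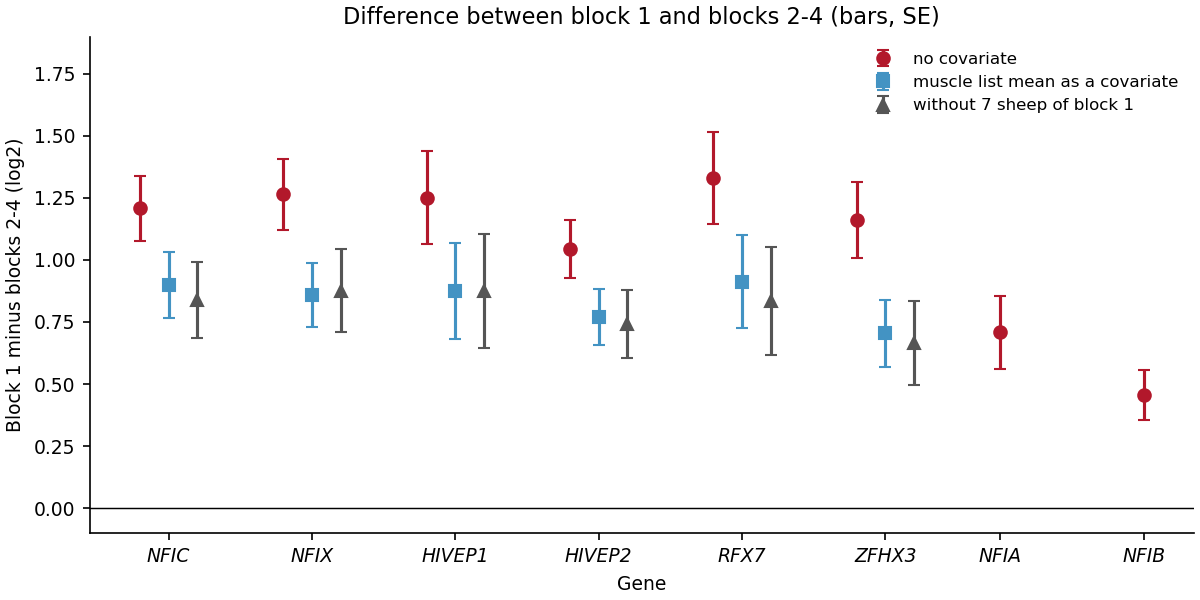
Difference between block 1 and blocks 2–4 (log2, y axis) for the 6 genes and the related genes NFIA and NFIB (x axis), with SE bars. All are drawn for the fit with no covariate. Only the 6 genes are also drawn with the muscle list mean as a covariate and without 7 sheep of block 1. All points lie above 0, and those of NFIA (0.71) and NFIB (0.46) lie below the red points of the 6 genes.

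NFIA and NFIB, the other NFI genes with a symbol here, moved in the same direction. Both come from the study's muscle or retention-time tables, which were drawn partly on these libraries. Their direction is thus no independent evidence. NFIA was higher in block 1 by 0.71 ± 0.15 and NFIB by 0.46 ± 0.10 log2 (SE, n = 16 and 46 sheep), and both passed the limma threshold (adjusted p = 0.000107 and 0.000219 in the fit over all genes). NFIA ran from 4.16 to 6.59 log2 CPM in block 1 with a median of 5.78, against 3.76 to 5.99 with a median of 4.86 in blocks 2–4. NFIB ran from 4.88 to 6.22 in block 1 with a median of 5.77, against 4.52 to 5.95 with a median of 5.28 in blocks 2–4. Both differences were smaller than those of NFIC and NFIX, and whether they differ from them was not tested.

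The study's muscle and retention-time tables gave 50 other transcription factor genes, NFIA and NFIB among them. Of these, 45 passed as higher in block 1, none passed as lower and 5 did not pass. Over all genes 17.2% passed as higher and 19.3% as lower. The median difference of the 50 genes was 0.46 log2, beside a median of −0.01 over all genes. ZNF469 (1.18 ± 0.24), TCF7L2, a Wnt pathway factor (0.90 ± 0.19), and ZNF462 (0.84 ± 0.12) had the largest differences in that list (log2, SE). Those tables were drawn partly on these libraries, so the list is no independent evidence of direction. Of 8 transcription factors known mainly from epithelium, 2 passed as higher in block 1, 4 passed as lower and 2 did not pass. Their median difference was −0.10 log2. TFAP2A, an early ectoderm and keratinocyte factor, was higher by 1.05 ± 0.16, whereas ELF3 (−0.87 ± 0.13) and PRDM1 (−0.65 ± 0.14), both tied to epithelial differentiation, were lower (log2, SE).

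Muscle content was taken, as the study did, from the mean of its muscle genes, here 645 genes without the 6 described. All 6 genes were higher in sheep with a higher muscle list mean. The slopes were 1.52 ± 0.22 for RFX7, 1.49 ± 0.16 for ZFHX3, 1.46 ± 0.17 for NFIX, 1.40 ± 0.22 for HIVEP1, 1.25 ± 0.18 for NFIC and 1.09 ± 0.15 for HIVEP2 (log2 per log2 unit of the mean, SE, n = 62). All 6 passed in a fit in which 25.9% of genes had a positive slope past the threshold. The genes were chosen on muscle content, and HIVEP2 and NFIX belong to the study's muscle list, so the count is again a description.

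Part of that relation lay between blocks. With block as a covariate the slopes were 0.62 (HIVEP2) to 1.06 (ZFHX3), and all 6 genes passed beside 22.0% of all genes. In blocks 2–4 alone they were 0.45 (HIVEP2) to 0.81 (ZFHX3), and all 6 passed beside 18.7% of all genes. Muscle content was used to choose the genes, so nothing is read from either count. The correlation with the muscle list mean was r = 0.75 for ZFHX3 (rho = 0.69) and r = 0.61 for HIVEP1 (rho = 0.56), with the others between, and 0.60 to 0.74 without the 2 sheep of the most extreme muscle means. Within blocks 1, 2, 3 and 4 the median r of the 6 genes was 0.72, 0.49, 0.52 and 0.57. Both measures come from the same libraries and share their depth.

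**Figure D3:**
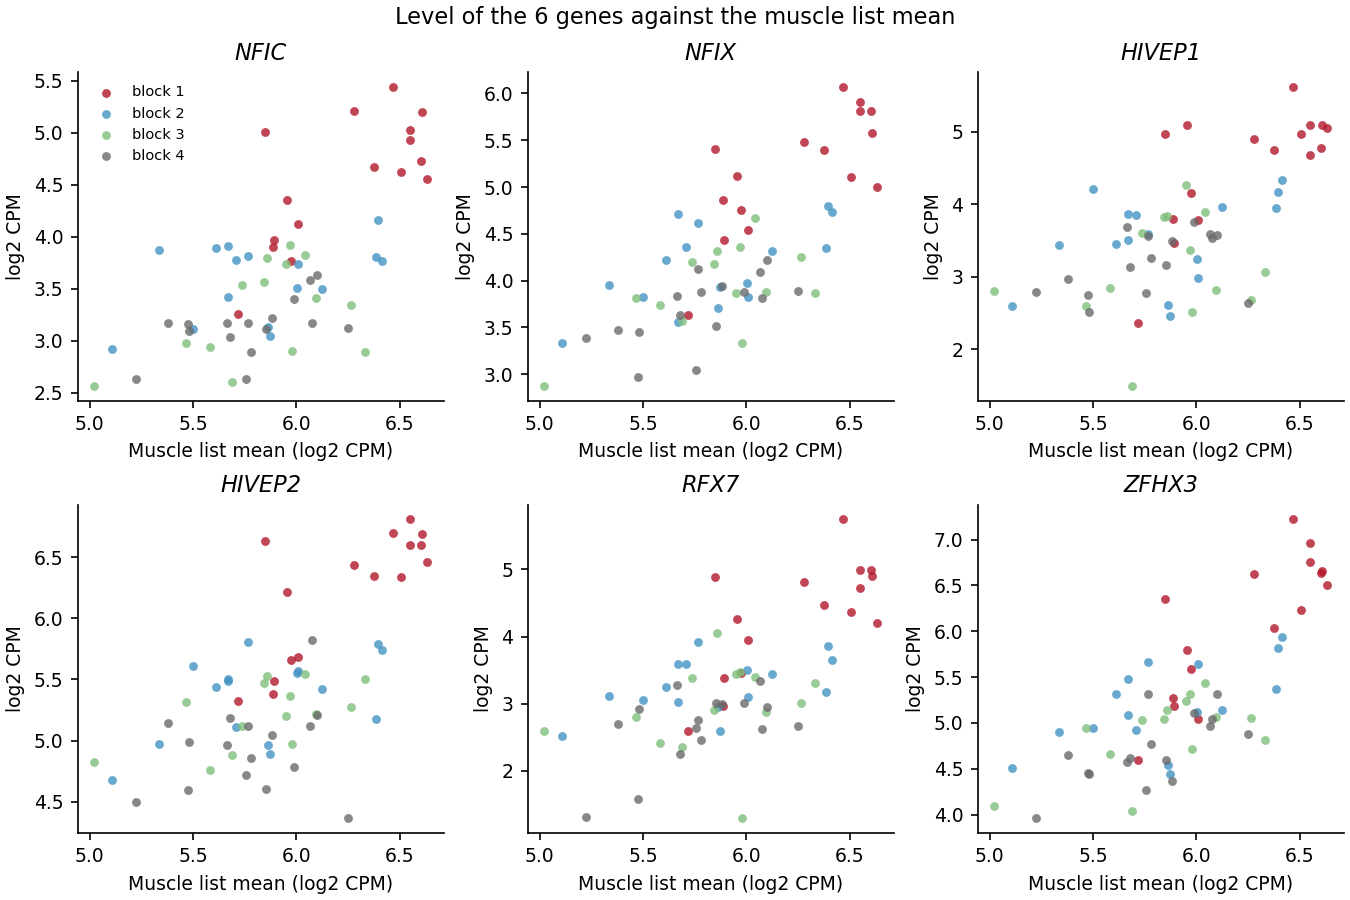
Level of each gene (log2 CPM, y axis) against the mean of the muscle list without these genes (log2 CPM, x axis). Each point is 1 sheep, colored by block. Levels are higher at a higher muscle mean, and sheep of block 1 (red) lie mostly above sheep of blocks 2–4 with a like muscle mean.

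Whether the slope on muscle content differed between the 4 blocks was tested, as the choice of the genes did not name a change of slope. The test does use the block and muscle values behind that choice. It is thus not independent of the choice, and nothing is read from its outcome. None of the 6 passed, with adjusted p of 0.38 (ZFHX3) to 0.83 (NFIX) in the limma F test over all genes, in which 0.137% of genes passed. The unadjusted p was under 0.05 for 2 of the 6, ZFHX3 (0.012) and HIVEP2 (0.034). With the smooth muscle markers in place of the muscle list it was 0.61 or more for each gene.

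The 6 genes were closer to the regulatory genes of the muscle list than to its contractile genes. The median r of the 6 genes was 0.78 with the mean of 144 muscle list genes annotated to regulation of nucleic acid-templated transcription, 0.59 with that of 50 extracellular matrix genes and 0.55 with that of 32 genes of muscle system process. For each of the 6 genes the 3 values stood in this order. With the 12 smooth muscle markers fixed for the tissue check, such as MYH11, DES and CNN1, the median r was 0.45. With the mean of the 50 transcription factors named above it was 0.86, from 0.81 for HIVEP2 to 0.91 for ZFHX3. With the mean of the 8 transcription factors known mainly from epithelium it was −0.04, from −0.10 for HIVEP2 to 0.12 for HIVEP1. That value joins blocks of opposite sign, as the median r within blocks 1 to 4 was −0.30, −0.12, 0.35 and 0.39. Values with no block named are over 62 sheep, and all are given with no test. The muscle list and its parts come from the study's networks, which include these libraries. The 50 transcription factors come from its muscle and retention-time tables, which hold the 6 genes as well. The order of these values is therefore a description only.

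On the other side, all 6 genes were lower where general metabolism genes were higher, with r of −0.77 (HIVEP1) to −0.88 (ZFHX3) over 62 sheep, and −0.73 to −0.84 without the 2 most extreme sheep. That relation was present in each block, with a median r of −0.90, −0.64, −0.57 and −0.74 in blocks 1 to 4. The relation with epithelial differentiation, with r of −0.55 (HIVEP1) to −0.75 (ZFHX3), was not. Its median r was −0.78 in block 1 and −0.52 in block 2, but 0.02 and 0.22 in blocks 3 and 4. Type I interferon genes gave a median r of −0.49 over all sheep and −0.13 after removal of block means, and cell cycle genes gave −0.17 and −0.38. The 7 markers of dividing cells gave 0.17 over all sheep and −0.21 after removal of block means, so their sign differed from that of the cell cycle list before that removal and not after it. The share of reads of the 4 mitochondrial transcripts also moved with the 6 genes, with a median r of 0.50 over all sheep and of 0.51 after removal of block means. Its part in the relations above was not tested.

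**Figure D4:**
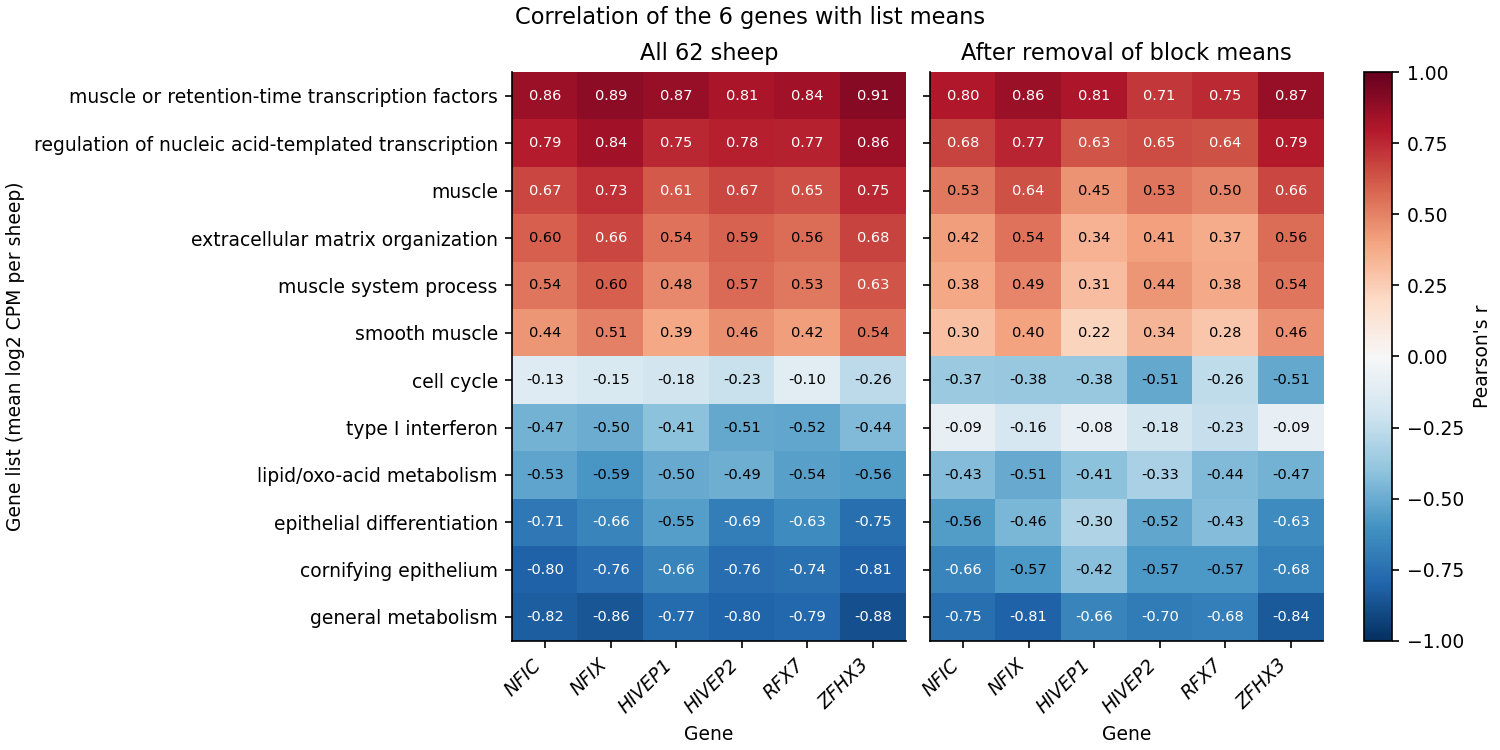
Pearson's r of each gene (columns) with the mean log2 CPM of 12 gene lists (rows), over all 62 sheep (left) and after removal of block means (right). Of the lists drawn, the transcription factors of the muscle and retention-time tables and the regulatory genes of the muscle list have the highest r, the contractile lists lie lower, and general metabolism has the lowest r in both panels.

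The 6 genes followed each other closely. Over the 15 pairs, r ran from 0.83 (HIVEP1 and HIVEP2) to 0.94 (NFIC and ZFHX3), with a median of 0.88, and rho from 0.75 to 0.90 (n = 62). By rho the closest pair was NFIC and NFIX (0.90), and HIVEP1 and HIVEP2 were again the loosest. With the 2 most extreme sheep of the first gene of a pair left out, r was 0.83 to 0.93. After removal of block means r was 0.71 to 0.87, and after removal of block means and the muscle list mean it was 0.57 (NFIX and HIVEP2) to 0.82 (NFIC and ZFHX3). Within blocks the median r was 0.92, 0.67, 0.70 and 0.58 in blocks 1, 2, 3 and 4. The pairs share libraries and depth, and the genes were chosen on a common pattern, so no test is given.

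Counting error took a small part of the spread between sheep. The SD expected from read numbers alone was 0.08 (HIVEP2) to 0.18 (RFX7) log2, while the observed SD was 0.61 (HIVEP2) to 0.88 (RFX7). That error is 1.46% (ZFHX3) to 4.83% (NFIC) of the variance. The expected SD covers counting error only.

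NFIA followed the 6 genes with r of 0.77 (HIVEP2) to 0.87 (ZFHX3), and NFIB with r of 0.70 (HIVEP2) to 0.83 (NFIX and ZFHX3), over 62 sheep. The genes most like each of the 6 were sought among the 1218 other genes with a symbol, which all come from the study's tables. NFIC was most like KMT2D, a histone methyltransferase, SRCAP, a chromatin remodeling ATPase, and BCL9L, a Wnt coactivator, each with r = 0.93. NFIX was most like SRCAP, ARID1A, a subunit of the SWI/SNF complex, and EP300, a histone acetyltransferase, also each with r = 0.93. HIVEP1 was most like ZMIZ1, a transcriptional coregulator (0.92), the kinase WNK1 (0.92) and MDC1, a DNA damage checkpoint protein (0.91).

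HIVEP2 was most like KMT2C, a histone methyltransferase (0.93), the splicing factor SRRM2 (0.93) and YLPM1, a nuclear protein (0.92). RFX7 was most like EP300 (0.91), the helicase HELZ (0.89) and the nuclear receptor coactivator NCOA6 (0.89). ZFHX3 had the highest values, with SRRM2 (0.95), EP300 (0.94) and SRCAP (0.94). EP300 and SRCAP thus stood among the 3 nearest genes with a symbol for 3 of the 6 each. Over all other genes the highest r of RFX7 was 0.92, with a gene that has no symbol here. After removal of block means the r of these pairs was 0.77 (RFX7 with HELZ and with NCOA6) to 0.89 (ZFHX3 with SRRM2).

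Among the same genes with a symbol, 2 had the lowest r. LAPTM4A, a lysosomal membrane protein, was lowest for NFIC (−0.85), RFX7 (−0.84) and HIVEP1 (−0.81). PPIB, a peptidyl-prolyl isomerase of the endoplasmic reticulum, was lowest for ZFHX3 (−0.90), NFIX (−0.86) and HIVEP2 (−0.86). Over all 16005 other genes, most with no symbol here, the lowest r was −0.90 (ZFHX3) to −0.83 (HIVEP1). In that set r exceeded 0.8 for 122 (RFX7) to 247 (ZFHX3) genes and was under −0.8 for 6 (HIVEP1) to 134 (ZFHX3) genes. The median r was −0.02 to −0.01.

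The study measured CH4 emission to relate it to the rumen wall. CH4 yield, the CH4 production per kg of dry matter intake (DMI), averaged 19.0 g/kg in block 1, against 19.8, 20.8 and 22.6 g/kg in blocks 2, 3 and 4. Over 61 sheep, all 6 genes were lower at a higher CH4 yield, with slopes of −0.09 ± 0.03 (RFX7) to −0.06 ± 0.03 (ZFHX3) log2 per g/kg (SE). The r was −0.36 for HIVEP2 (rho = −0.36) and −0.25 for ZFHX3 (rho = −0.30), and −0.36 to −0.27 without the 2 sheep of most extreme CH4 yield. With sheep oz151 kept, whose very low labeled DMI gives it an extreme CH4 yield, the slopes were near 0, from −0.000444 (RFX7) to 0.000988 (NFIX) log2 per g/kg, and positive for 4 of the 6. None of the 6 passed the limma threshold, nor did any gene (0% of 16011, with 1521 genes at an unadjusted p under 0.05), and none passed with voom precision weights. Without sheep oz175, whose DMI of 0.376 kg/d was the lowest kept, 18 genes passed, none of them among the 6. NFIC, ZFHX3 and RFX7 belong to a list that the study drew partly on CH4 yield in these sheep.

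That relation was weaker once block means were removed. After removal of block means r with CH4 yield was −0.16 (HIVEP1) to 0.02 (ZFHX3), and the median r within blocks 1 to 4 was −0.06, 0.06, −0.13 and −0.14. In blocks 2–4 alone it was −0.33 (HIVEP2) to −0.11 (ZFHX3). HIVEP2 in block 4 had the strongest value within a block (r = −0.50), whereas NFIX in the same block had 0.19. Block 1, which had the highest levels of these genes, thus also had the lowest mean CH4 yield, and block and CH4 yield cannot be told apart in the values over all sheep.

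DMI gave the same picture with the opposite sign. It averaged 1.33 kg/d in block 1, against 1.28, 1.12 and 1.05 kg/d in blocks 2, 3 and 4. Slopes were 0.59 ± 0.32 (NFIX) to 0.75 ± 0.25 (HIVEP2) log2 per kg/d (SE, 61 sheep), with r of 0.23 to 0.35, and 0.14 to 0.25 without the 2 most extreme sheep. None of the 6 passed, nor did any gene (0% of 16011, 1899 at an unadjusted p under 0.05), while 4 genes passed without oz175, again none of the 6. After removal of block means r was −0.09 (NFIX) to 0.12 (HIVEP2).

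CH4 production in g/d showed no such relation. Its r with the 6 genes was 0.04 (RFX7) to 0.20 (HIVEP2) over 62 sheep, none passed, and 0.0125% of genes did. Block 3 gave lower values, with r of −0.64 (NFIC) to −0.45 (HIVEP1) over its 14 sheep, while the median r in blocks 1, 2 and 4 was 0.11, 0.09 and −0.19. The difference between blocks was not tested. Live weight gave r of −0.05 (NFIX) to 0.11 (NFIC) over all sheep, none of the 6 passed, and 0.0187% of genes did.

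**Figure D5:**
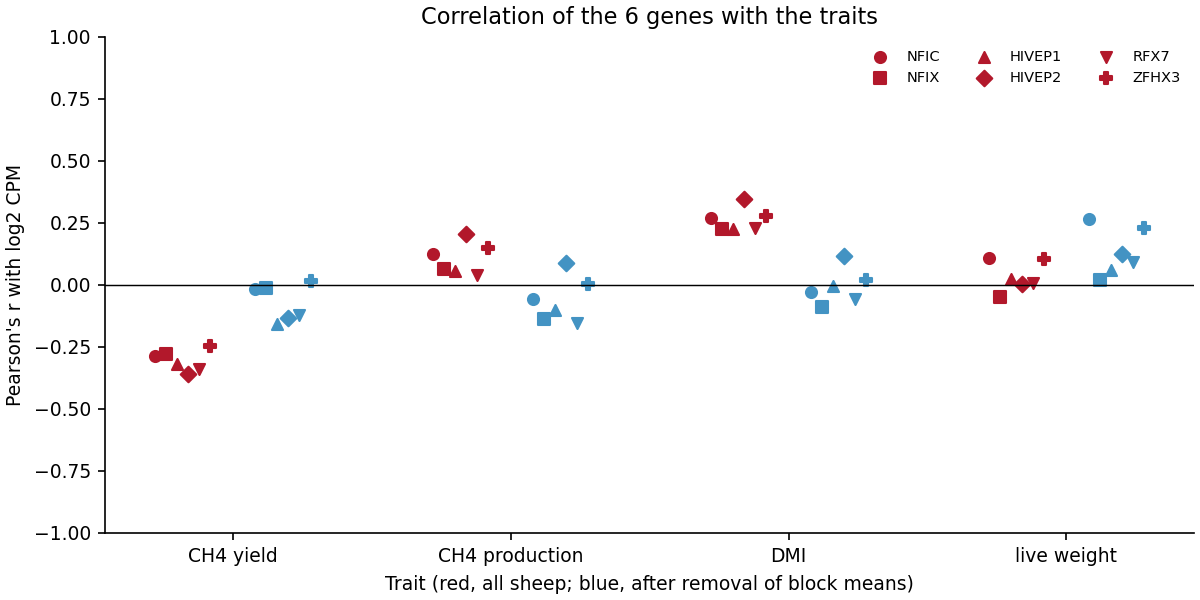
Pearson's r of each gene with 4 traits (x axis), over all sheep (red) and after removal of block means (blue). For CH4 yield and DMI the red points lie away from 0 (−0.36 to −0.25 and 0.23 to 0.35), and the blue points lie around 0.

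The relation with sequencing depth was tested, with block as a covariate, since the genes were not chosen on it. All 6 slopes were negative, from −0.47 ± 0.25 (RFX7) to −0.21 ± 0.20 (NFIX) log2 per doubling of assigned reads (SE, n = 62). None passed, with adjusted p of 0.32 to 0.66 in limma over all genes, in which 0.294% of genes passed. With the muscle list mean added, the adjusted p was 0.080 to 0.26, and the unadjusted p was under 0.05 for 5 of the 6. Within blocks the median r with log2 assigned reads was −0.58, −0.03, −0.42 and 0.20 in blocks 1 to 4. All 6 genes had a negative r in blocks 1 and 3, 3 of the 6 had one in block 2, and none in block 4.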

How the data were processed

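The authors prepared stranded libraries depleted of ribosomal RNA, mapped the reads to sheep gene models of Ensembl (TopHat, Bowtie2) and took unique reads per gene (HTSeq). What the authors deposited is voom output, log2 CPM with an offset of 0.5 reads, for 16011 genes. EdgeR and limma are also named in the submitters' notes on processing. Here the reads were recovered from the steps of the deposited log2 values (100% whole, tolerance 0.01 reads). The library size behind the CPM scaling was recovered with them, and it differed from the assigned reads in both directions. It was 7921867 against 7002800 reads for oz192, and 6678788 against 7261607 for oz170.

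Genes were fitted over the whole table by limma (version 3.58.1, R version 4.3.3) with trended empirical Bayes, which was tested on simulated data, and p was adjusted by Benjamini-Hochberg. The replicate is the sheep. Sheep oz151, with a labeled DMI of 0.0795 kg/d, was left out of CH4 yield and DMI. Lists are means of log2 CPM without the 6 genes, and a relation after removal of block means uses residuals of both measures.

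The 6 genes, lists and tests were chosen with earlier results of these data known. Except HIVEP2, the genes are in the study's retention-time table. For each gene, the 3 genes with the highest and the 1 with the lowest r among genes with a symbol are named, and up to 3 per transcription factor list by the largest difference. Symbols come from the study's tables (1224 genes). Gene lengths, coordinates, retention time and sequences were not used here. Of 5 endothelial and nerve markers 2, and of 3 immune markers 0, had a symbol and value, and neither list is used.

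Alternatives were an offset of 2 reads, a minimum of 3 CPM in every library, quantile normalization, voom precision weights, 1 variance per block, covariates, and leaving out sheep or block 1. The covariate of smooth muscle markers, the fits without 7 sheep and the traits in blocks 2–4 alone were chosen after seeing the data.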

Additional observations from a re-analysis of the deposited data

How the results depend on the processing

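The 6 genes were chosen on block and muscle values, so their signs and calls under the alternatives for these comparisons are no sign of stability. RFX7 and HIVEP1 did not enter the fit on genes at 3 CPM or more. The count of all genes that passed between blocks was 5842, and became 2313 with the muscle list mean, 3717 with the smooth muscle markers as covariates and 571 without 7 sheep of block 1. For CH4 production 2 genes passed, against 7 with block and muscle, 4 with block, 1 after quantile normalization, and 0 in blocks 2–4, at 3 CPM or more and with precision weights. For CH4 yield 0 passed, against 2 with oz151 and 18 without oz175. For DMI 0 passed, against 2 after quantile normalization and 4 without oz175. For live weight 3 passed, against 40 with block and muscle, 1 at 3 CPM or more, and 0 with block and with precision weights. For the slope between blocks 22 passed, against 9 at 3 CPM or more and 0 with the smooth muscle markers. For depth 47 passed, against 398 with block and muscle. None of the 6 genes was among the genes counted for traits, slope or depth.

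The median r of the 15 pairs was 0.88, and became 0.75 after removal of block means, 0.66 with the muscle list mean also removed and 0.68 in blocks 2–4. The median r with epithelial differentiation was −0.68 and became −0.49 after removal of block means, that with type I interferon was −0.49 and became −0.13, and that with markers of dividing cells was 0.17 and became −0.21. The slopes of the 6 genes on CH4 yield were near 0 with oz151 kept. The cause of these changes was not tested. No paired analysis was possible because each block held different sheep and their numbers here are only names. Limma takes 1 variance for all sheep, while the 6 genes spread more in block 1, so their SE is too small there. The fit with 1 variance per block gave 5345 genes. RFX7, at 13 to 358 reads, is the least precisely measured.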
